A study of Mus musculus with 6 samples.

Results

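The genes described here encode proteins that stop viruses at entry, at genome copying or at release from the cell. They are 9 of the 51499 loci in the count table of an RNA-Seq experiment and were chosen by name: Ifitm1, Ifitm2, Ifitm3, Ifitm10, Bst2, Rsad2, Mx1, Mx2 and Ch25h. A locus was taken when one of the gene names joined at it was on this list, and each of the 9 names was found once. The question put to the data was whether the Ifitm genes moved like the other effector genes when Yme1l was depleted. The genes were chosen with earlier results of these data known, so their counts beside those of all loci are descriptions.

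Both groups consisted of mouse embryonic fibroblasts (MEFs) with the label WT MEF, collected 72 h after transfection with Scr siRNA (control) or with Yme1l siRNA, with 3 independent cultures in each group. YME1L is a protease of the inner mitochondrial membrane. According to the methods, WT cells were clones of Yme1l loxP/loxP MEFs identified as unrecombined after Cre, from a culture transformed with plasmids for the large T antigen of SV40. The labels instead call the cells 3T3 immortalized. If the libraries were made from those clones, which the labels do not say, both groups share the floxed alleles. Whether the siRNA against Yme1l was a single sequence or a pool is not given in the sources used here.

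Interferon-stimulated genes (ISGs) are switched on when type I interferon binds its receptor and the signal brings transcription factors to interferon-stimulated response elements in their promoters. IFITM proteins sit in the plasma membrane and in endosomes, where they hinder fusion of the viral envelope with the host membrane. BST2 (tetherin) holds budding virions at the cell surface, RSAD2 (viperin) makes a chain-terminating nucleotide from CTP, Mx proteins are dynamin-like GTPases that trap viral nucleocapsids, and CH25H makes 25-hydroxycholesterol, an oxysterol that blocks viral fusion.

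Depletion of Yme1l was followed by higher counts of Ifitm3, Bst2, Rsad2, Mx1 and Mx2, while the locus that holds Ifitm2 fell. Of the 8 genes with enough counts for a test, 5 rose and 1 fell in edgeR's quasi-likelihood test at an adjusted p under 0.05. Among all 14499 loci tested, 28.4% were called higher and 29.6% lower. The median log2 fold change was 2.85 over Bst2, Rsad2, Mx1 and Mx2, -0.32 over the 4 Ifitm loci and 0.01 over all loci tested. The Ifitm median lies between the values of the Ifitm2 and Ifitm10 loci, which also hold other genes, and Ifitm1 had few reads. It therefore describes these loci and not the Ifitm genes alone. Within the Ifitm genes, Ifitm3 rose, the Ifitm2 locus fell, and Ifitm1 and the Ifitm10 locus did not pass the test.

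The promoters of the genes are shown first, because the core of the interferon-stimulated response element can be looked for near their starts. RefSeq promoter windows of the GRCm38.p6 assembly run from 250 bases before to 50 bases after an annotated start, and 7 of the 9 genes had one. The core was searched on both strands as GAAA, any 2 bases and GAAA again. It was present in 4 of the 7 genes, namely Ifitm2, Ifitm3, Bst2 and Rsad2, against 1079 of all 27025 genes (3.99%). No match lay in the windows of Ifitm1, Ifitm10 or Ch25h.

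Stretches around the matches follow, read along the gene's strand from 5′ to 3′, with the core in capitals, and the matching stretch of Ifitm1 is given for comparison. Starts are those of RefSeq, which differ from the ends of the GENCODE genes given below: the RefSeq start lies 855 bases inside the gene for Ifitm1, 26 bases inside for Ifitm2 and Ifitm3, 16 bases outside for Bst2 and at the same base for Rsad2. The absence of a match in Ifitm1 thus holds for the RefSeq start only. For Ifitm2 and Ifitm1 the stretches are the 60 bases before the RefSeq start (chr7:140955962-140956021, minus strand, and chr7:140968016-140968075, plus strand). For Ifitm3 they are bases 2 to 31 after the start (chr7:141010714-141010743, minus strand). For Bst2 and Rsad2 they are the bases from 150 to 91 before the start (chr8:71537563-71537622 and chr12:26456543-26456602, both minus strand).
Ifitm3: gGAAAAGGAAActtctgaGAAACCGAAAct
Ifitm2: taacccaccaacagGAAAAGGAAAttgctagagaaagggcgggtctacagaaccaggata
Ifitm1: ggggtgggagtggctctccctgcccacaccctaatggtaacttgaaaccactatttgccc
Bst2: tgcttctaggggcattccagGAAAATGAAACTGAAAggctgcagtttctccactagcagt
Rsad2: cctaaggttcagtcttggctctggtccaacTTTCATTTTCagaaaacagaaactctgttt
In Ifitm3, both matches lay just after the start, at bases 3 and 20, and each was followed by CT. This longer motif, which contains the core, was present in 0.303% of all genes with a window. The Ifitm2 match began 46 bases before the start and lacked the CT. Bst2 had a pair of overlapping matches, which began 130 and 124 bases before the start, the first of them followed by CT. The match in Rsad2 lay on the other strand and was therefore read in its reverse complement, with its first printed base 120 bases before the start. Among 30 other antiviral effector genes, 14 of the 24 with a window held the core. These are matches of letters, and binding was not measured.

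**Figure D1:**
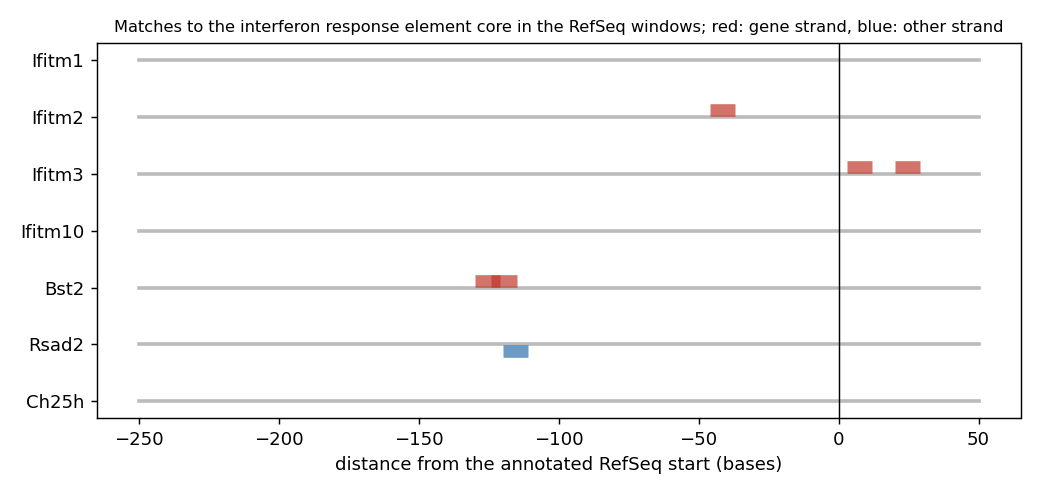
Matches to the interferon-stimulated response element core in the RefSeq windows of 7 genes, against the distance from the annotated start in bases. Matches of Bst2, Ifitm2 and Rsad2 lie before the start and those of Ifitm3 after it, and the lines of Ifitm1, Ifitm10 and Ch25h carry none.

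The libraries held 37260605 to 45205207 counts. Levels are given as CPM, which are counts relative to the library size as scaled by edgeR's TMM method, and errors are SD with n = 3. Yme1l1, the target, had 171 ± 0.425 CPM in Scr cultures and 33.4 ± 10.9 CPM in Yme1l siRNA cultures (log2 fold change -2.36, SE 0.20, adjusted p = 3.87e-05), and after knockdown it had the most reads in replicate 3, 1898 against 1403 and 1019. Transcripts encoded by mitochondrial DNA made up 4.11% and 3.92% of the counts in Scr replicates 1 and 2, and less in Scr replicate 3, near the 2.00% to 2.14% of the knockdown libraries. Fibroblast markers summed to 33541 to 40636 CPM in Scr cultures and to 17980 to 22389 CPM after knockdown. Of the 7 tested markers 6 fell, against 29.6% of all loci tested, and Thy1 was at or near 0 throughout. Of 7 leukocyte markers, 4 were at 0 in every library and the sum, nearly all Cd68, was 42.7 to 53.0 CPM against 25.7 to 58.2 CPM. Epithelial and endothelial markers summed to 0.403 to 0.637 CPM and to 1.73 to 1.89 CPM. The part of these shifts in the results was not tested, and in bulk RNA a change in the number of cells and in RNA per cell cannot be told apart.

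Ifitm3, the IFITM protein with the best known action against influenza virus, lies on chromosome 7 (GRCm38, chr7:141009586-141010770, minus strand). It was counted at 11228, 8391 and 6330 reads in Scr replicates 1, 2 and 3, and at 24988, 29320 and 13837 reads in the Yme1l siRNA replicates. This corresponds to 259, 233 and 150.0 CPM in Scr cultures and to 563, 675 and 328 CPM after knockdown. Every knockdown library was above every Scr library, and replicate 3 was the lowest of each group. The mean rose from 214 ± 57.0 to 522 ± 177 CPM, a 2.44-fold difference (log2 fold change 1.29, SE 0.27, adjusted p = 0.00380 by edgeR). Groups without overlap were found at 65.4% of all loci tested, so the separation by itself is near the background, and it is also the background of the genes below.

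The Ifitm2 locus joins Ifitm2 (chr7:140954837-140955987, minus strand) with Ifitm5, known from bone, and the gene model Gm45717, so its reads cannot be assigned to Ifitm2 alone. Its counts were 7782, 6335 and 5670 in the Scr replicates and 4936, 5372 and 4404 after knockdown. In CPM these were 180, 176 and 134 against 111, 124 and 105. Here the order of the groups was the opposite of Ifitm3, with each knockdown library under each Scr library. The mean fell from 163 ± 25.1 to 113 ± 9.67 CPM (log2 fold change -0.53, SE 0.12, adjusted p = 0.00520).

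Ifitm1 (chr7:140967221-140969825, plus strand), whose protein acts mainly at the plasma membrane, was close to the limit of detection. It had 14, 10 and 10 reads in Scr cultures and 10, 5 and 4 reads after knockdown, or 0.279 ± 0.0432 and 0.145 ± 0.0703 CPM. Knockdown libraries had the lower values without overlap, but the difference did not pass the test (log2 fold change -0.92, SE 0.43, adjusted p = 0.0972). Summed over the group, 19 against 34 reads gave a ratio of 0.523 with an exact 95% interval of 0.282 to 0.943, which covers counting error only.

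Ifitm10 (chr7:142325837-142373753, minus strand), a member of the family of little known function, shares its locus with Ctsd, the lysosomal protease cathepsin D, and with AC034099.1. The locus had 29809, 25510 and 29493 reads in Scr cultures and 29252, 32583 and 21838 reads after knockdown. Means were 698 ± 9.24 and 642 ± 117 CPM, the groups overlapped, and the difference did not pass the test (log2 fold change -0.12, SE 0.12, adjusted p = 0.433). How many of these reads belong to Ifitm10 is not known from the counts.

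Bst2, the tether of budding virions, lies at chr8:71534255-71537456 on the minus strand. Its counts were 3222, 1867 and 1139 in Scr cultures and 18754, 19657 and 10071 in Yme1l siRNA cultures. Expressed as CPM, the Scr cultures had 74.4, 51.7 and 27.0 and the knockdown cultures 423, 452 and 239. The lowest knockdown library was more than 3 times the highest Scr library. Mean levels were 51.1 ± 23.7 and 371 ± 116 CPM, a 7.27-fold difference (log2 fold change 2.86, SE 0.37, adjusted p = 0.000283).

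Rsad2 (chr12:26442746-26456452, minus strand), which encodes the radical SAM enzyme viperin, had the largest log2 fold change of the 8 tested genes. Reads numbered 1148, 743 and 599 in the Scr replicates and 10830, 11971 and 3639 after knockdown. The corresponding levels were 26.5, 20.6 and 14.2 CPM against 244, 275 and 86.4 CPM. The groups stood clear of each other, although the knockdown replicates differed among themselves by about 3-fold. The mean increased 9.88-fold, from 20.4 ± 6.16 to 202 ± 101 CPM (log2 fold change 3.30, SE 0.42, adjusted p = 0.000264).

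Mx1 and Mx2, which in mice act in the nucleus and in the cytoplasm, respectively, are neighbours on chromosome 16 (chr16:97447035-97462907, minus strand, and chr16:97535308-97560900, plus strand). The annotation lists Mx2 as a polymorphic pseudogene, and many inbred strains are known to carry defective alleles of both genes. Mx2 was counted at 486, 284 and 168 reads in Scr cultures and at 2747, 3379 and 1097 reads after knockdown, or 11.2, 7.87 and 3.98 CPM against 61.9, 77.7 and 26.0 CPM. The groups did not overlap, and the mean rose 7.18-fold from 7.69 ± 3.63 to 55.2 ± 26.5 CPM (log2 fold change 2.84, SE 0.45, adjusted p = 0.000818).

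Mx1 was lower and less evenly changed. It had 183, 124 and 49 reads in the Scr replicates and 456, 581 and 146 reads after knockdown. In CPM, Scr cultures had 4.23, 3.44 and 1.16 and knockdown cultures 10.3, 13.4 and 3.46, so that replicate 3 of the knockdown overlapped the Scr range. Mx1 passed the test at 1.62 on the log2 scale (SE 0.54, adjusted p = 0.0299), a 3.07-fold difference between means of 2.94 ± 1.59 and 9.04 ± 5.07 CPM. The call was lost without Scr replicate 2 (adjusted p = 0.0649), Scr replicate 3 (0.0738), Yme1l siRNA replicate 1 (0.0766) or Yme1l siRNA replicate 2 (0.0993). It was kept without Scr replicate 1 (0.0306) or Yme1l siRNA replicate 3 (0.00268).

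Ch25h (chr19:34473778-34475164, minus strand) had too few reads for the test. It had 0, 0 and 1 reads in Scr cultures and 8, 5 and 5 reads after knockdown. The ratio of the summed reads, 18 against 1, was 16.8 with an exact 95% interval of 2.66 to 702, for counting error only. The exons overlap those of Gm26902 on the other strand, and the sources do not say whether the counting used strand. Of the other genes of oxysterol handling, Cyp7b1, which breaks 25-hydroxycholesterol down, fell from 1.07 ± 0.235 to 0.500 ± 0.0507 CPM (log2 fold change -1.08, SE 0.26, adjusted p = 0.00746). The locus that joins Hsd3b7, another enzyme gene of oxysterol breakdown, with Setd1a and AC149222.1 rose (log2 fold change 0.43, SE 0.08, adjusted p = 0.00164).

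**Figure D2:**
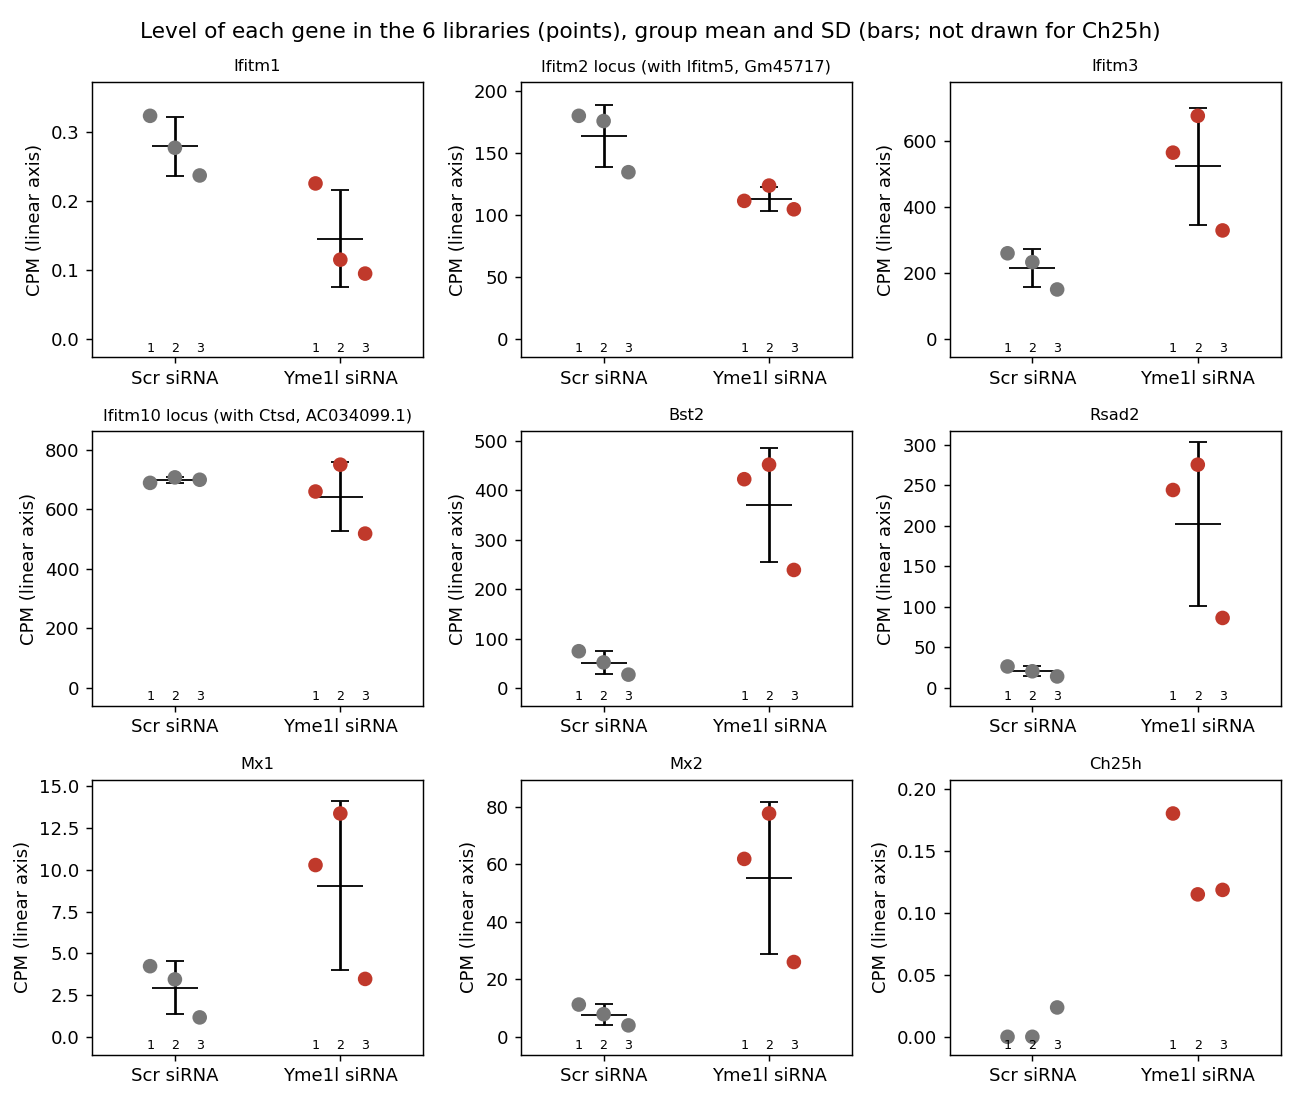
CPM (linear axis from 0) of the 9 genes in each of the 3 Scr siRNA libraries (grey) and 3 Yme1l siRNA libraries (red), numbered by replicate, with the group mean and SD. Bst2, Rsad2, Mx2 and Ifitm3 separate with the knockdown above, the Ifitm2 locus separates with the knockdown below, and Mx1 and the Ifitm10 locus overlap.

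For the 6 genes that passed the test, replicate 3 had the lowest CPM of the Scr group and of the knockdown group alike, with the smallest spread at the Ifitm2 locus. Scr replicate 3 is the library with the low share of mitochondrial transcripts, and knockdown replicate 3 is the one with the most Yme1l1 left. The part of either in the low values was not tested. Without Scr replicate 3 or without Yme1l siRNA replicate 3, Bst2, Rsad2, Mx2, Ifitm3 and the Ifitm2 locus stayed on their side of the threshold.

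Levels of different genes were compared per kilobase of annotated exon of the locus. At joined loci this length counts the exons of all genes named there. It was 1420 bases for the Ifitm2 locus, against 655 for Ifitm2 alone. For the Ifitm10 locus it was 7140 bases, against 4789 for Ifitm10 and 2351 for Ctsd alone. The places of these loci in the order, and their overlap with neighbours, depend on this choice. In Scr cultures Ifitm3 had the highest level, 316 CPM per kb, followed by the Ifitm2 locus at 115, the Ifitm10 locus at 97.8, Bst2 at 56.5, Rsad2 at 4.71, Mx2 at 2.13, Mx1 at 0.777 and Ifitm1 at 0.255 CPM per kb. The ranges over libraries overlapped between the Ifitm2 and Ifitm10 loci and between Mx2 and Mx1, and between no other neighbours in this order. After knockdown Bst2 stood second, at 411 CPM per kb, under Ifitm3 at 770.0 and above the Ifitm10 locus at 90.0 and the Ifitm2 locus at 79.7. Rsad2 then had 46.6, Mx2 15.3 and Mx1 2.39 CPM per kb. In these libraries the ranges of Ifitm3 and Bst2, of the Ifitm10 and Ifitm2 loci, and of Rsad2 and Mx2 overlapped, as did those of Ifitm1 and Ch25h, at 0.133 and 0.0995 CPM per kb.

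Ratios of counts taken inside a library do not depend on its scale factor. Ifitm3 had 1.44, 1.32 and 1.12 times the reads of the Ifitm2 locus in Scr cultures and 5.06, 5.46 and 3.14 times after knockdown. The ratio of Bst2 to Ifitm3 was 0.287, 0.223 and 0.180 against 0.751, 0.670 and 0.728, so that Bst2 gained on Ifitm3 in every knockdown library, including replicate 3. The ratio of Mx2 to Mx1 was 2.66, 2.29 and 3.43 against 6.02, 5.82 and 7.51. None of these 3 ratios overlapped between the groups, and 0.1 is the smallest p that an exact permutation test of 3 against 3 can give. For Ifitm3 and the Ifitm2 locus this follows from the opposite order of their groups given above and is no separate result. The share of such ratios over all pairs of loci was not counted.

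On the log2 scale, the mean CPM of Bst2, Rsad2, Mx1 and Mx2 differed from Ifitm3 by -3.89, -4.16 and -4.53 in the Scr replicates and by -2.65, -2.66 and -3.15 after knockdown. From the Ifitm2 locus the same mean differed by -3.36, -3.75 and -4.37 in Scr cultures and by -0.31, -0.21 and -1.50 after knockdown. Both gaps were thus narrower in all knockdown libraries, and the gap to the Ifitm2 locus changed more than that to Ifitm3. These gaps recombine the levels given above and are no separate result.

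**Figure D3:**
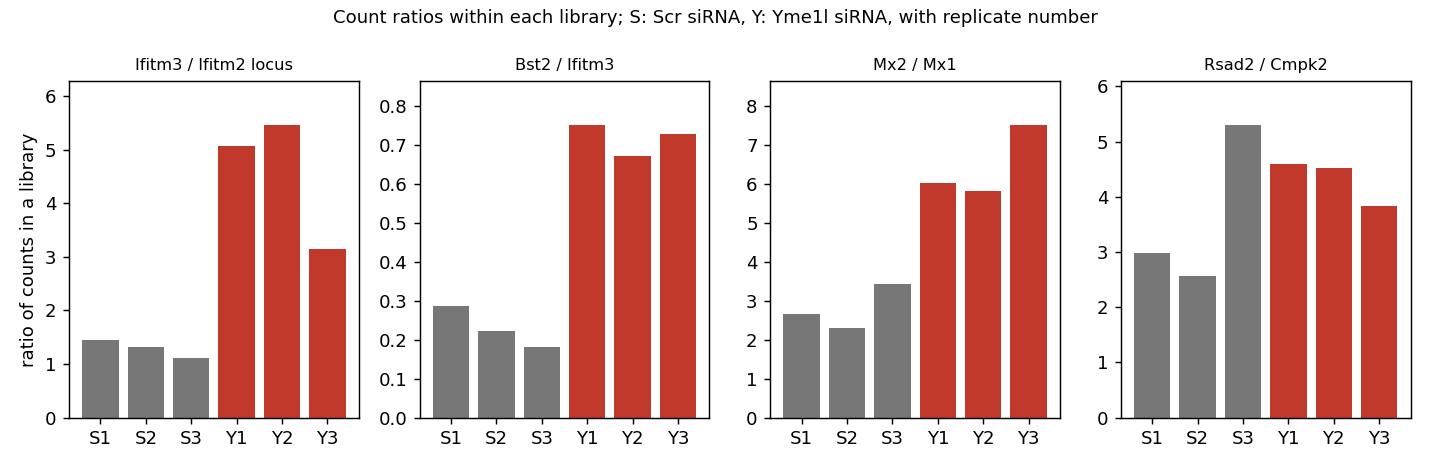
Ratios of counts within each library (bars from 0), for Scr siRNA replicates (S, grey) and Yme1l siRNA replicates (Y, red). The ratios of Ifitm3 to the Ifitm2 locus, Bst2 to Ifitm3 and Mx2 to Mx1 separate the groups, whereas Rsad2 to Cmpk2 ranges from 2.56 to 5.30 in Scr cultures and from 3.83 to 4.59 after knockdown.

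Rsad2 stands beside Cmpk2, which encodes a mitochondrial nucleotide kinase that supplies the substrate CTP, and this gene rose as well, from 6.54 ± 3.37 to 45.5 ± 20.3 CPM (log2 fold change 2.80, SE 0.47, adjusted p = 0.00110). The ratio of Rsad2 to Cmpk2 counts was 2.98, 2.56 and 5.30 in Scr cultures and 4.59, 4.52 and 3.83 after knockdown. These values overlapped, unlike the ratios between members described above.

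A list of 30 other antiviral effector genes gives the context of the ISG response. Of these, 28 rose and 0 fell, against 28.4% and 29.6% of all loci, and the median log2 fold change was 2.17. The 4 smallest adjusted p-values belonged to Oas3 (log2 fold change 4.40), Oasl1 (4.37), Oas1g (5.06) and Oas2 (5.03), which belong to the family of 2′-5′-oligoadenylate synthetases and related proteins. Gbp2, which encodes a guanylate-binding protein, did not pass the test at 0.64 (adjusted p = 0.0735).

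Against this list, Rsad2 was above 24 of the 30 genes in log2 fold change, and Bst2 and Mx2 were each above 22. Mx1 was above 11 and Ifitm3 above 9, among them Trim25 (1.08), Adar (1.03) and Eif2ak2 (0.94). The Ifitm1, Ifitm2 and Ifitm10 loci lay below all 30. Of all loci tested, 5.72% had a larger log2 fold change than Ifitm3, 3.76% than Mx1, 0.952% than Mx2, 0.945% than Bst2 and 0.614% than Rsad2.

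**Figure D4:**
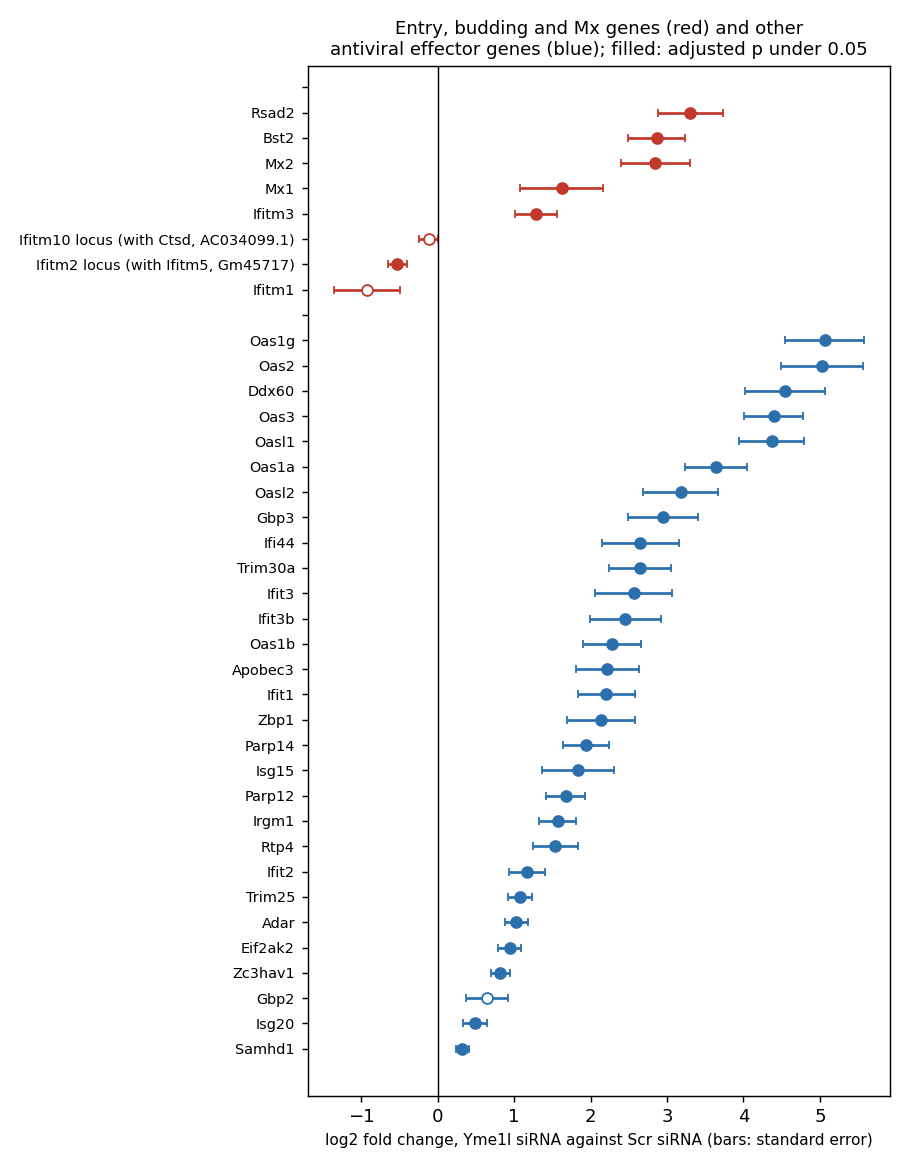
Log2 fold changes with standard errors (horizontal bars) for the 8 tested genes (red) and 29 of the 30 other antiviral effector genes (blue), with filled points where the adjusted p was under 0.05. Rsad2, Bst2 and Mx2 lie among the upper blue points, Ifitm3 and Mx1 among the lower, and the other Ifitm loci below 0.

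Genes listed for the interferon pathway, its inhibitors Usp18 and Socs1 included, moved less evenly. Of 16 tested, 10 rose and 2 fell, against 28.4% and 29.6% of all loci, with a median log2 fold change of 0.50. Those with the smallest adjusted p were Mb21d1, which encodes cGAS (1.49), the ISG15 protease gene Usp18 (2.99), the locus of Irf9 and Rnf31 (1.19) and the kinase gene Tbk1 (0.40). The kinases of the receptor fell slightly, Jak1 by 0.20 and Tyk2 by 0.27 on the log2 scale. Reads of Ifnb1, which encodes interferon-β, numbered 3, 1 and 0 in Scr cultures and 37, 60 and 11 after knockdown, a ratio of 25.3 with an exact 95% interval of 9.58 to 94.4 for counting error, and replicate 3 was again the lowest of both groups.

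Other members of the CD225 family, to which the IFITM proteins belong, were mostly too low for a test or counted at loci joined with other genes. Of 10 loci, 4 were tested and 0 rose, while 2 fell, beside 28.4% of all loci called higher and 29.6% lower. Those that fell are the joined Ifitm2 and Ifitm5 locus described above and the locus that holds Prrt2 with Mvp and other names (log2 fold change -1.41, adjusted p = 7.67e-06). The tested locus that joins Tmem265 with Srcap and Gm42715 was not called (0.16, adjusted p = 0.0918). Reads of these joined loci cannot be assigned to a single gene. Ifitm6 had 51 reads in all Scr libraries and 42 after knockdown (log2 fold change -0.39, adjusted p = 0.572). Ifitm7 had 2 and 7 reads and was not tested.

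Dynamin-like GTPases related to the Mx proteins were also counted, and their difference from Mx1 and Mx2 was not tested. Of 10 tested, against 28.4% of all loci higher and 29.6% lower, 1 rose, Atl2 (log2 fold change 0.68, adjusted p = 0.000166), a gene of endoplasmic reticulum fusion. Those that fell were 5, namely Atl1 (-1.24), Dnm3 (-1.05), Dnm1 (-0.65), Dnm1l (-0.48), the mitochondrial fission GTPase, and Dnm2 (-0.30). Opa1, the mitochondrial fusion GTPase that YME1L cleaves, had 0.01 (adjusted p = 0.930), and Mfn1 and Mfn2 did not pass the test either.

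Genes whose products act with or on these effectors were called higher in 5 of 15 cases and lower in 9, against 28.4% and 29.6% of all loci, so that the share called higher is near the background. Among partners of the IFITM proteins, Zmpste24, a membrane protease needed for IFITM action, rose (log2 fold change 0.93, adjusted p = 4.62e-05). Nedd4, the ubiquitin ligase that marks IFITM3 for degradation, fell from 1397 ± 50.1 to 703 ± 138 CPM (log2 fold change -0.99, adjusted p = 0.000390). The palmitoyltransferase gene Zdhhc20 (-0.42) and the methyltransferase gene Setd7 (-0.72), whose products modify IFITM3, also fell, and Vapa did not pass the test (0.04). Rnf115, a cofactor of tetherin, fell by 0.18.

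Partners of viperin included Ciao1, of the cytosolic iron-sulfur cluster pathway, which rose by 0.33, and the joined locus of Fdps, Gm43738 and Rusc1, which fell (-0.95, adjusted p = 3.05e-05). Around 25-hydroxycholesterol, its targets Insig1 (-1.18) and Insig2 (-0.38) and the oxysterol receptor gene Nr1h2 (-0.68, adjusted p = 0.000105) fell, and Nr1h3, its relative, rose (1.05).

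Neighbouring loci were described as well. Within 100 kb of Ifitm1, Ifitm2 or Ifitm3, 13 loci were tested, these 3 included, of which 3 rose and 4 fell, shares near the 28.4% and 29.6% of all loci. Beside Ifitm3, the loci that rose were Pkp3, which encodes a desmosome protein (log2 fold change 1.45), and the proteasome gene Psmd13 (0.26). Those that fell besides the Ifitm2 locus were Ric8a (-0.62), B4galnt4 (-0.59) and Pgghg (-0.57). Ifitm6, the nearest tested locus to Ifitm3, and Ifitm1 were not called, so that of the 4 Ifitm loci tested in this cluster, Ifitm3 alone rose.

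Called neighbours of the other genes are listed as values, again beside 28.4% of all loci called higher and 29.6% lower. Next to Rsad2 and Cmpk2, Rnf144a fell (-0.66). Around Mx1 and Mx2, Tmprss2, which encodes a serine protease that cleaves viral fusion proteins, rose (2.27, adjusted p = 0.00761) and Bace2 fell (-2.00). Of 12 tested loci near Bst2, 1 rose (Abhd8, 0.85) and 3 fell (Ano8, -1.21, Colgalt1, -0.44, and Slc27a1, -0.42). Near Ch25h, Ifit2 rose (1.16) and Lipa, the lysosomal acid lipase gene, fell (-0.80), and near the Ifitm10 locus Syt8 rose (2.66).

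The loci most like each gene were found by the Euclidean distance between their centred log2 CPM over the 6 libraries, among 11091 candidates. Nearest to Ifitm3 were Apol6 (distance 0.167), Lgals9 (0.246) and Trim21 (0.257). For Bst2 these were Usp18 (0.224), Gbp3 (0.422) and Mx2 (0.490), and for Mx2 they were Gbp3 (0.327), Usp18 (0.399) and Ifit3 (0.401). Rsad2 was nearest to H2-Q7 (0.451), Cxcl10 (0.566) and Usp18 (0.604), and Mx1 to C4b (0.544), Psmb9 (0.700) and Zbp1 (0.732). Bst2, Rsad2 and Mx2 thus had Usp18 in common among their nearest 3, and neither Ifitm3 nor Mx1 had any of the others' neighbours. Loci with a similar fold change lie close by this distance. The neighbours of Ifitm3 had log2 fold changes of 1.22, 1.42 and 1.35, and those of Bst2 had 2.99, 2.95 and 2.84. The grouping therefore largely repeats the fold changes given above and is no separate result.

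The Ifitm loci that did not rise had other neighbours. The Ifitm2 locus was nearest to Rsph9 (0.0899), Cavin4 (0.118) and Fam43a (0.120), the Ifitm10 locus to 1810013L24Rik (0.0686), Foxc1 (0.0816) and Zmat1 (0.123), and Ifitm1 to Ankrd44 (0.326), Prss35 (0.379) and Adamtsl3 (0.402). The neighbours of the Ifitm2 locus had log2 fold changes of -0.59, -0.52 and -0.55, so that these neighbours too largely repeat the fold changes. The points of these distances are libraries of 1 experiment, so the distances are descriptions.

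Sequence likeness limits how far reads can be told apart. The Mx1 transcript was 94.8% identical to that of Mx2 over 920 of 3385 bases, and Ifitm2 was 82.9% identical to Ifitm3 over 363 of 655 bases. Summing Mx1 and Mx2 gave a log2 fold change of 2.60 (adjusted p = 0.00159), and summing the Ifitm1, Ifitm2 and Ifitm3 loci gave 0.75 (adjusted p = 0.0207). Ifitm2 was also 97.0% identical over 432 bases to the processed pseudogene Gm11951, which had 0 to 2 reads in a library, and Ifitm1 was 97.5% identical over 319 of 882 bases to Gm7676, which had 0 to 8. The latter is close to the 4 to 14 reads of Ifitm1 itself, so its count is uncertain.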

How the data were processed

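RNA-Seq libraries of 6 cultures were analysed, 3 per group, assigned by the sample labels. The authors deposited raw counts per locus, without normalization. Their processing notes name HISAT2 2.0.4, StringTie 1.3.3 and Cuffdiff 2.2.1 on mm10, and the counting program and its use of strand are not given in the sources used here. Their second table holds group FPKM, fold changes, test statistics, p-values and q-values and was not used. Poly(A)-selected libraries had been amplified by PCR, so intervals cover counting error only.

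Counts were tested with edgeR 4.0.16 in R 4.3.3: TMM factors, filterByExpr (minimum count 10, minimum total 15), a quasi-likelihood fit without covariates and Benjamini-Hochberg adjustment over 14499 loci, with a threshold of 0.05. A standard error is the log2 fold change divided by the root of F. The biological coefficient of variation was 0.131. Intervals of count ratios are exact conditional binomial intervals scaled by library size. Alternatives were DESeq2 1.42.0, limma-voom (limma 3.58.1), other scale factors and filters, a replicate block, removal of mtDNA loci, sums of similar genes and leaving out each library. No library was a second count of another: chi-square values of library pairs in 1 group were 10.3 to 76.3 for each degree of freedom.

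The genes, context lists and rules were chosen with earlier results of these data known. Named beside the 9 genes were Yme1l1, Ifnb1, Cmpk2 and Cyp7b1, called loci within 100 kb and the 3 loci most like each gene. From each context list other than the cell type markers, the 4 genes with the smallest adjusted p and those that fell were named. The marker lists are given as sums. Genes named outside this rule (Gbp2, Trim25, Adar, Eif2ak2, Opa1, Mfn1, Mfn2, Vapa, Ciao1, Hsd3b7, Nr1h3, Ifitm7, Cd68 and Thy1) were added after their values were seen. The value of 1 further effector gene of the list is not reported here. Coordinates and exon lengths came from GENCODE M21 (GRCm38), promoter sequence from RefSeq (GRCm38.p6) and transcript identity from BLAST 2.17.0. Figures were drawn with matplotlib 3.10.9.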

Additional observations from a re-analysis of the deposited data

How the results depend on the processing

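Bst2, Rsad2, Mx2, Ifitm3 and the Ifitm2 locus kept their direction and their call by adjusted p in every alternative run. The number of the genes that rose was between 4 and 6: it was 4 by limma-voom, where Mx1 had an adjusted p of 0.0571, and between 4 and 5 when single libraries were left out. With no filter on low counts it was 6, since Ch25h was then tested (log2 fold change 3.65, adjusted p = 0.0131 by edgeR). The number that fell was 1, and 1 to 2 when single libraries were left out, as Ifitm1 passed the test at -1.39 once knockdown replicate 1 was removed (adjusted p = 0.0453). The median of the Ifitm loci was -0.086 when a mean of at least 50 counts was required, because Ifitm1 was then not tested, and -0.42 to -0.23 when libraries were left out. The median of the other effectors was 2.54 to 3.23 when libraries were left out. The Ifitm10 locus ranged from -0.24 to 0.013 when libraries were left out, with the change of sign without replicate 3 of the knockdown (adjusted p = 0.902).

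Over all alternatives 27 to 29 of the 30 antiviral effector genes rose, and among all loci 3433 to 4258 were called higher and 3603 to 4460 lower. Over all loci tested, same-numbered libraries deviated together only weakly, with correlations of 0.04, 0.12 and 0.19, so the numbers were not taken as pairs. The genes that passed the test differ from this, since replicate 3 was the lowest of both groups. With a replicate block their adjusted p by edgeR was smaller, for example 4.84e-05 for Ifitm3, 1.84e-05 for Mx2 and 0.000194 for Mx1. With a replicate block, 5 genes rose and 1 fell, the medians were -0.33 and 2.87, and 29 effector genes rose, with 4227 loci higher and 4460 lower. With 3 cultures per group, differences at Ifitm1 and Ch25h, at 14 reads or fewer per library, were at the limit of the depth.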
